A study of Mus musculus with 4 samples.

Results

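Voltage-gated calcium and sodium channels open when the membrane of a neuron depolarises. They are described here through 36 genes of mouse hippocampal nuclei, taken as every symbol listed in all 4 libraries that names a calcium channel pore (Cacna1a to Cacna1i), an alpha2delta, calcium beta or gamma subunit, or a sodium channel pore or beta subunit. The 36 genes stand among 20211 symbols shared by the libraries. Names and listing made that choice, with earlier results of these data known. The libraries listed 20743 to 22832 symbols each, so listing differed between them. The symbols Scn10a and Scn11a fit the same name patterns, but were not listed in every library and are not part of the set. Nuclear RNA was counted as unique molecular identifiers (UMIs, 1 per captured RNA molecule) in 1 single-nucleus library per genotype. The genotypes are wild type, a total or global MAGL knockout, an astrocyte-specific MAGL knockout and a neuron-specific MAGL knockout. MAGL, the product of Mgll, is monoacylglycerol lipase, which breaks down the endocannabinoid 2-arachidonoylglycerol. The study asks about overabundant endocannabinoids in neurons and cognition. Which Cre drivers made the cell-specific lines, how old the animals were and how many contributed to a library is not stated in the labels. With 1 library per genotype, no difference between genotypes could be tested. Differences between classes of nuclei were tested over the 4 libraries, which serve as replicates. Their genotypes differ, so they came from different animals, but nothing says that they were prepared separately. The p-values therefore measure only how differences between classes varied over these 4 libraries, which also differ in genotype.

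A sodium or calcium channel consists of a large pore-forming subunit, which senses voltage and conducts the ion, and of auxiliary subunits that set its amount at the surface and its kinetics. Sodium channels start and carry the action potential. Calcium channels of the P/Q, N and R types trigger transmitter release and shape dendritic signals, L-type channels couple activity to gene expression, and T-type channels open near rest and favour burst firing. Calcium channels at the terminal are also among the targets of cannabinoid receptor signalling. Most gamma subunits of the brain, although named after the calcium channel, act as auxiliary proteins of AMPA-type glutamate receptors.

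The alpha2delta genes Cacna2d1 and Cacna2d3 had nearly opposite levels in Lamp5 and Sst interneurons, as described further on, and the sequence upstream of their start sites is shown for that reason. Each stretch holds the 250 bases before the RefSeq start on the gene's own strand in GRCm38.p6, and GGGCGG or its reverse complement CCGCCC (the GC box, a binding sequence of Sp1-type factors) is in capitals. The stretch of Cacna2d1 lies at chr5:15934441-15934690 on the plus strand and that of Cacna2d3 at chr14:29721865-29722114 on the minus strand.
Cacna2d1: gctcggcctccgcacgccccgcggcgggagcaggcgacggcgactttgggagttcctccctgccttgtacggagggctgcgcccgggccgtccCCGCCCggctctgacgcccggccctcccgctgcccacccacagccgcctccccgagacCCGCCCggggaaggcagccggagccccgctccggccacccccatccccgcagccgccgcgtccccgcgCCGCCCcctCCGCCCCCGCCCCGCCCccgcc
Cacna2d3: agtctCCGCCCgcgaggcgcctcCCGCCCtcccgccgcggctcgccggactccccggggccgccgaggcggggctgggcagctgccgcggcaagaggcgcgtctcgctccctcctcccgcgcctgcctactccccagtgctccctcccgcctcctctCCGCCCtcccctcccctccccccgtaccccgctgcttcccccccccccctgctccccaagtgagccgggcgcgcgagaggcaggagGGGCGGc
The motif occurred 6 times in the first stretch and 4 times in the second. Of 32851 stretches of this length in the RefSeq table, 32.7% held it at least once and 4.09% held it 4 times or more. GC content was 82.4% and 80.0%, against a median of 52.4% over all stretches. Both genes thus have GC-rich upstream sequence, and a match of letters is a description, not a site.

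The libraries differed in ways that touch the results below. They held between 8646 and 23702 nuclei after filtering, with 78722378 to 128964102 UMIs in those nuclei. The library labelled total knockout was the largest and the shallowest, with a median of 5455 UMIs per barcode against 7448 to 8903 in the others, and 23.4% of its nuclei were called doublets against 2.14% to 5.99%. The expected doublet rate was set at 0.8% per 1000 barcodes, so it was higher for this library, and the part of that setting was not tested. The library labelled total knockout held 81.1% nuclei scored male and 0.0127% scored female, whereas the others held 41.7% to 46.7% male nuclei. Pairs of libraries shared 108 to 466 barcode sequences, at most 4.63% of the smaller library. Mgll, the targeted gene, had 107 CPM (UMI counts scaled to a common library total) in wild-type nuclei, 86.4 in those of the library labelled total knockout, 108 in astrocyte knockout and 109 in neuron knockout. In astrocyte-like nuclei it had 345 CPM (95% Poisson interval 270 to 436) in wild type, 242 (177 to 324) in the library labelled total knockout and 231 (143 to 354), from 21 UMIs, in that labelled astrocyte knockout. In inhibitory nuclei it had 120 CPM (114 to 127) in wild type and 117 (112 to 122) in the library labelled total knockout, whose intervals lay below those of wild type in dentate granule, CA1 and CA2/CA3 nuclei. No knockout library thus had Mgll intervals below those of wild type in every class. For the libraries labelled astrocyte and neuron knockout the intervals overlapped those of wild type or lay above them. Some of their values were lower, as in the astrocyte-like nuclei above, where 21 UMIs leave a wide interval. In CA2/CA3 nuclei the library labelled neuron knockout had 133 CPM (123 to 143) against 142 (132 to 153) in wild type. The labels do not say which part of the gene was deleted. Nuclei were assigned to classes by marker genes, none of which is a member of the set, and class names mean resemblance on those markers. Dentate granule, CA1 and CA2/CA3 nuclei, the defining neurons of the hippocampus, were found in every library. The CA2/CA3 class was the least certain of these. Of its nuclei 66.0% lay in a cluster (formed without the members) that the same markers named CA2/CA3. For CA1 and dentate granule nuclei the shares were 84.6% and 99.5%. For mossy and immature granule nuclei the share was 0%, and no cluster took those names. In each library 16.6% to 20.8% of CA2/CA3 nuclei lay in an unnamed cluster that scored highest on mossy markers, at 0.592 against 0.509 for CA2/CA3 markers. In wild-type CA2/CA3 nuclei their own markers summed to 2568 CPM and the subicular or cortical markers to 2512 CPM. Medium spiny-like nuclei, a striatal type, numbered 36, 698, 5 and 5 in wild type, total, astrocyte and neuron knockout. Values of 4 libraries are given below in that order.

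Of the 36 members, 32 reached a mean of at least 10 CPM in 1 or more of the 13 classes that held at least 20 nuclei in every library. The other 4 were Cacna1f, Cacng1, Cacng6 and Scn4b. Levels of different genes are compared per kilobase of gene span, since long genes with long introns yield more nuclear UMIs. On that scale the mean over all nuclei was 4.89 CPM per kilobase for Cacng8, 3.65 for Scn2a and 3.52 for Scn3b. Cacna1a stood at 2.59 and Cacna2d3, which spans 816.9 kilobases, at 1.12. The lowest were Cacng1 and Cacna2d4, both at 0.0145.

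**Figure D1:**
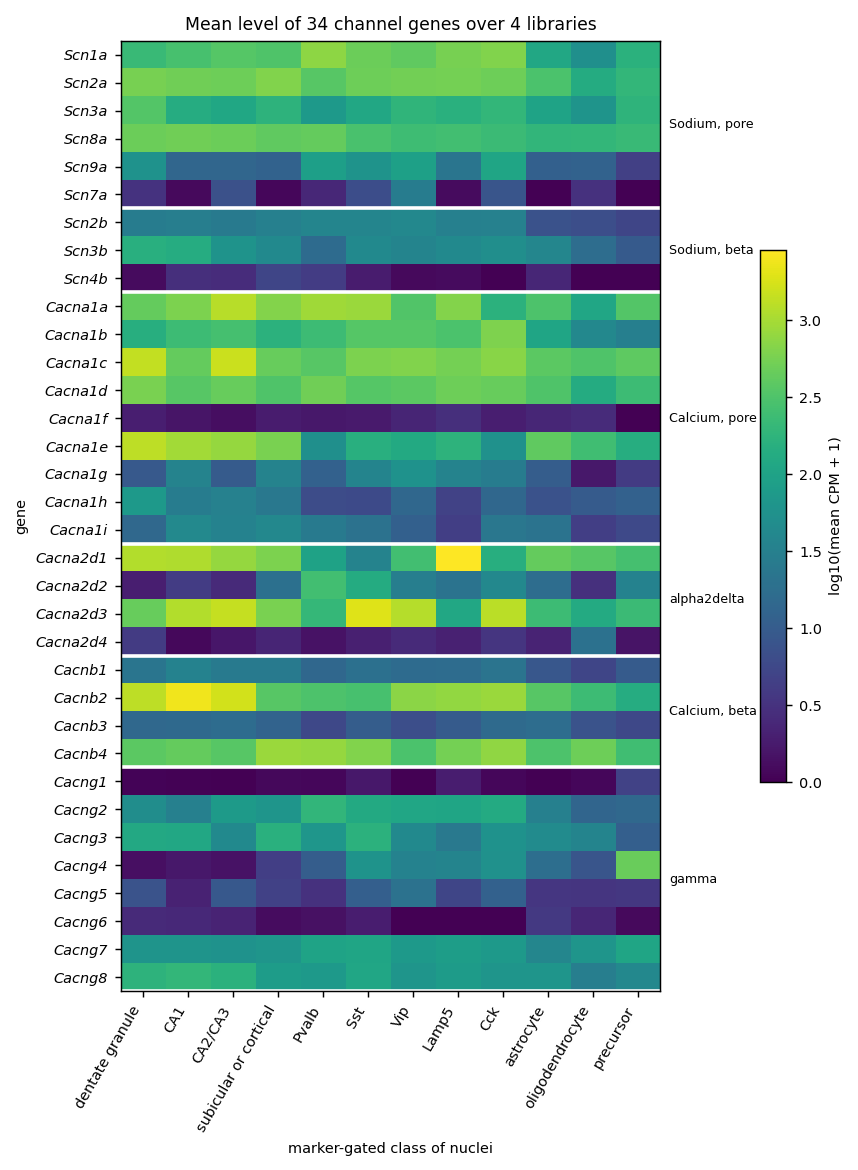
Mean CPM over the 4 libraries of 34 channel genes (rows, grouped by role) in 12 marker-gated classes (columns), as log10(mean CPM + 1). Cacna2d1 in Lamp5 nuclei (2870 CPM) and Cacnb2 in CA1 (2442 CPM) are the brightest fields, and Cacng4 stands out in precursors (459 CPM).

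Between inhibitory and excitatory neurons, 23 of 35 members tested differed, 11 higher and 12 lower in inhibitory neurons. A member was called at an adjusted p under 0.05 (edgeR quasi-likelihood test with the library as a block, Benjamini-Hochberg over all genes) and a difference of at least 1.5-fold. Over all 16033 genes the same rule called 36.7%, with 20.0% higher and 16.7% lower. Excitatory neurons are here the mean of dentate granule, CA1 and CA2/CA3 neurons on the log2 scale. The differences were fitted after TMM scaling of the sums (trimmed mean of M-values), which the CPM values do not carry, so a difference need not equal the log2 ratio of the CPM printed beside it. Between CA1 and dentate granule neurons 18 of 35 members were called, 9 in each direction, against 31.1% of all genes (16.2% higher and 14.9% lower). Between CA2/CA3 and dentate granule neurons 17 of 35 were called, 9 higher and 8 lower, against 32.6% of all genes (17.5% and 15.1%). Between CA2/CA3 and CA1 neurons 9 of 35 were called, 6 higher and 3 lower, against 19.9% (11.0% and 8.94%). Between Pvalb neurons (fast-spiking basket and chandelier-type cells) and the mean of Sst, Vip and Lamp5 neurons, 22 of 31 were called, 9 higher and 13 lower, against 19.1% (9.46% and 9.63%). The median difference of the members lay near 0 in the contrasts of principal neurons (0.12, 0.10 and -0.16 on the log2 scale) and at -0.33 for Pvalb neurons. The channel genes thus differed in both directions, and which member was high changed from class to class.

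**Figure D2:**
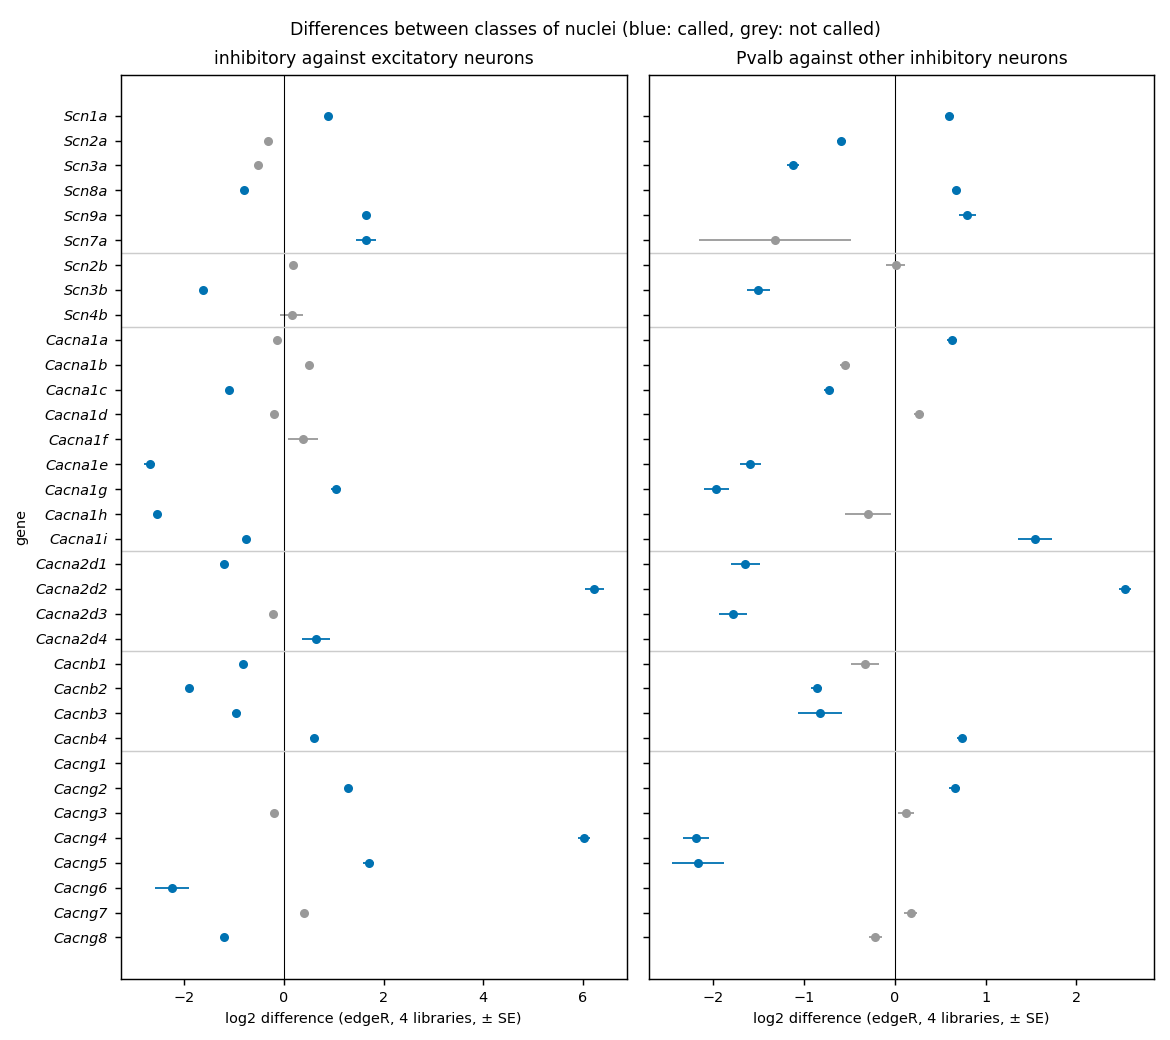
Log2 difference with its standard error (horizontal bars) for 34 members where tested (rows) between inhibitory and excitatory neurons (left) and between Pvalb and other inhibitory neurons (right), from edgeR over 4 libraries. Blue points were called and grey points were not. Cacna2d2 is the farthest to the right in both, at 6.23 and 2.54, and Cacna1e lies to the left in both, at -2.70 and -1.59.

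Of the sodium channel pores, Scn1a was higher in inhibitory than in excitatory neurons. Its product is the channel that sustains firing of interneurons. It had 553, 577, 588 and 578 CPM in inhibitory nuclei and 209, 229, 221 and 212 CPM in dentate granule nuclei. The 2 sets of libraries did not overlap. Dentate granule nuclei had the lowest mean of the neuron classes, and CA2/CA3 nuclei the highest of the excitatory ones, below all 5 inhibitory subtypes. The difference from excitatory neurons was 0.88 (SE 0.031, adjusted p = 1.54e-19). Pvalb nuclei were higher again, with 730, 768, 762 and 720 CPM, and Cck nuclei came second with 630 ± 36.5 (SD, n = 4). Sst nuclei were the second lowest of the 5 subtypes, with 480 ± 10.8. Scn8a, the pore of the axon initial segment and node, went the other way, with 477 ± 32.7 CPM in dentate granule, 509 ± 32.3 in CA1, 480 ± 26.2 in CA2/CA3 and 314 ± 16.2 in inhibitory nuclei and a fitted difference of -0.81 (SE 0.028, adjusted p = 1.82e-19). Within inhibitory neurons Scn8a was higher in Pvalb nuclei, by 0.67 (SE 0.049, adjusted p = 5.61e-17). Against the mean of Sst, Vip and Lamp5 neurons, Scn1a, Scn8a and Scn9a were thus higher in Pvalb neurons, while Scn2a and Scn3a were lower, by -0.59 and -1.12.

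Scn2a, the main pore of excitatory axons, differed little among principal neurons. It had 538, 605, 512 and 558 CPM in dentate granule nuclei, 512, 534, 478 and 502 in CA1 and 486, 553, 453 and 510 in CA2/CA3. These values overlapped, and no contrast between the 3 classes reached 1.5-fold. Scn3a, a pore that is prominent before birth, kept its highest level in dentate granule nuclei, with 345, 356, 313 and 340 CPM. CA1 nuclei had 142, 143, 122 and 136 CPM, a difference of -1.27 (SE 0.042, adjusted p = 1.21e-19). The genes lie next to each other on chromosome 2 of GRCm38, Scn3a at chr2:65457118-65567627 on the minus strand and Scn2a at chr2:65620771-65767447 on the plus strand. Scn1a (chr2:66270778-66440840), Scn9a (chr2:66480080-66634962) and Scn7a (chr2:66673425-66784914) follow, all on the minus strand. Members of this cluster had unlike patterns over the classes.

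Scn9a, best known from pain-sensing neurons, was higher in inhibitory neurons by 1.66 (SE 0.052, adjusted p = 1.41e-20). Of dentate granule, CA1 and CA2/CA3 nuclei, it was highest in the first, with 57.5, 54.9, 59.4 and 56.0 CPM against 14.7, 13.7, 12.8 and 10.8 in CA1. Mossy nuclei had a higher mean than dentate granule nuclei. The difference between CA1 and dentate granule neurons was -2.08 (SE 0.074, adjusted p = 6.14e-19). Cck nuclei had the most, 106 ± 10.0 CPM (SD, n = 4), overlapping with Vip nuclei at 92.5 ± 20.0, and Lamp5 nuclei the least of the subtypes with 21.3 ± 4.71. Scn7a, which encodes the sodium-sensing Nax channel rather than a classical voltage-gated one, marked Vip nuclei, with 26.4, 29.0, 30.1 and 24.7 CPM. No other subtype passed 9.18 CPM in any library. Mossy nuclei came second among the 13 classes, with a mean of 10.7 CPM (2.59 to 17.7). Scn7a was also found in CA2/CA3 at 6.21, 3.92, 5.91 and 8.88 CPM and hardly in CA1, where the highest library had 0.523 CPM. That contrast was 4.75 (SE 0.37, adjusted p = 4.48e-11). The part of mossy-like nuclei in the CA2/CA3 values of Scn7a was not tested.

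The sodium channel beta subunits are small adhesion-type proteins that speed gating and anchor the channel. Scn3b had 15.9, 16.0, 14.8 and 13.1 CPM in Pvalb nuclei and 157, 144, 147 and 151 in dentate granule nuclei, with no overlap. It was lower in inhibitory than in excitatory neurons by -1.62 (SE 0.047, adjusted p = 4.06e-21), and lower in CA2/CA3 than in CA1 by -1.19 (SE 0.056, adjusted p = 1.48e-15). Scn2b varied little over the neuron classes, with means from 25.9 CPM in CA2/CA3 to 40.3 in Vip nuclei, and no neuronal contrast called it. Scn4b, the subunit linked to resurgent sodium current, had a mean of at most 4.34 CPM in the 13 classes. In medium spiny-like nuclei of the library labelled total knockout it reached 114 CPM from 428 UMIs. The level over all nuclei of that library was 5.74 CPM against 1.91 to 2.31 in the others, and that library also held most of the medium spiny-like nuclei.

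Cacna1a, the P/Q-type pore that dominates fast release, was highest in CA2/CA3 nuclei with 1175, 1165, 1360 and 1219 CPM. Dentate granule nuclei had 410, 450, 444 and 454 CPM, a ratio of 2.59 to 3.06 in each library. The difference between the 2 classes was 1.53 (SE 0.041, adjusted p = 2.22e-21). Among inhibitory subtypes, Pvalb nuclei had 848, 940, 912 and 995 CPM and Cck nuclei 206, 144, 159 and 147. Cacna1b, the N-type pore, had the opposite order between these 2 subtypes, with 229, 242, 235 and 234 CPM in Pvalb and 562, 634, 570 and 665 in Cck nuclei. Cck basket cells are known for release through N-type channels and for their cannabinoid receptors, and fast-spiking cells for release through P/Q-type channels. The contrast of Pvalb with Sst, Vip and Lamp5 neurons, which leaves out Cck nuclei, was 0.63 for Cacna1a (SE 0.057, adjusted p = 2.83e-13) and -0.55 for Cacna1b, which is under 1.5-fold. The difference between Pvalb and Cck nuclei was not tested.

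Cacna1e, the R-type pore, was far lower in inhibitory than in excitatory neurons. It had 1256, 1309, 1386 and 1275 CPM in dentate granule nuclei and 129, 233, 190 and 153 CPM in inhibitory nuclei. The difference was -2.70 (SE 0.12, adjusted p = 5.60e-09). Pvalb nuclei had 59.4, 66.1, 44.4 and 36.3 CPM and Cck nuclei 59.4, 63.1, 50.3 and 46.3. Of the L-type pores, Cacna1c was high in dentate granule and CA2/CA3 nuclei and low in CA1, with 1311, 1375, 1552 and 1367 CPM, 1437, 1431, 1697 and 1468 CPM, and 397, 443, 494 and 408 CPM. CA2/CA3 exceeded CA1 by 1.79 (SE 0.043, adjusted p = 6.52e-22). Cacna1d, the L-type pore that opens at lower voltages, was more even over the neuron classes, from 317 ± 27.5 CPM in subicular or cortical nuclei to 575 ± 16.2 in dentate granule nuclei. Cacna1f, the retinal L-type pore, had a mean of at most 1.93 CPM in the 13 classes.

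The T-type pores differed from each other in where they were high. Cacna1h was highest in dentate granule nuclei at 70.3 ± 6.29 CPM (SD, n = 4), 2.55 lower in inhibitory than in excitatory neurons (log2 difference -2.55, SE 0.072, adjusted p = 1.31e-21). Cacna1g was low in dentate granule nuclei at 8.24 ± 2.02 CPM and in CA2/CA3 at 8.69 ± 3.60, and higher in CA1 at 34.1 ± 4.42. CA1 exceeded dentate granule neurons by 2.11 (SE 0.13, adjusted p = 9.39e-11). Of the 13 classes, Cacna1g had its highest mean in Vip nuclei at 56.1 CPM, overlapping with immature granule nuclei at 49.2. Cacna1i was higher in CA1, at 41.9 ± 2.71 CPM, than in dentate granule nuclei, at 13.5 ± 1.41, by 1.69 (SE 0.074, adjusted p = 4.94e-17). Mossy nuclei had the highest Cacna1i mean of the 13 classes, 79.2 CPM (59.6 to 99.6), above the CA1 values. In Pvalb nuclei Cacna1i was higher than in the mean of Sst, Vip and Lamp5 nuclei by 1.55 (SE 0.19, adjusted p = 9.84e-09) and Cacna1g lower by -1.97 (SE 0.14, adjusted p = 8.04e-18).

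**Figure D3:**
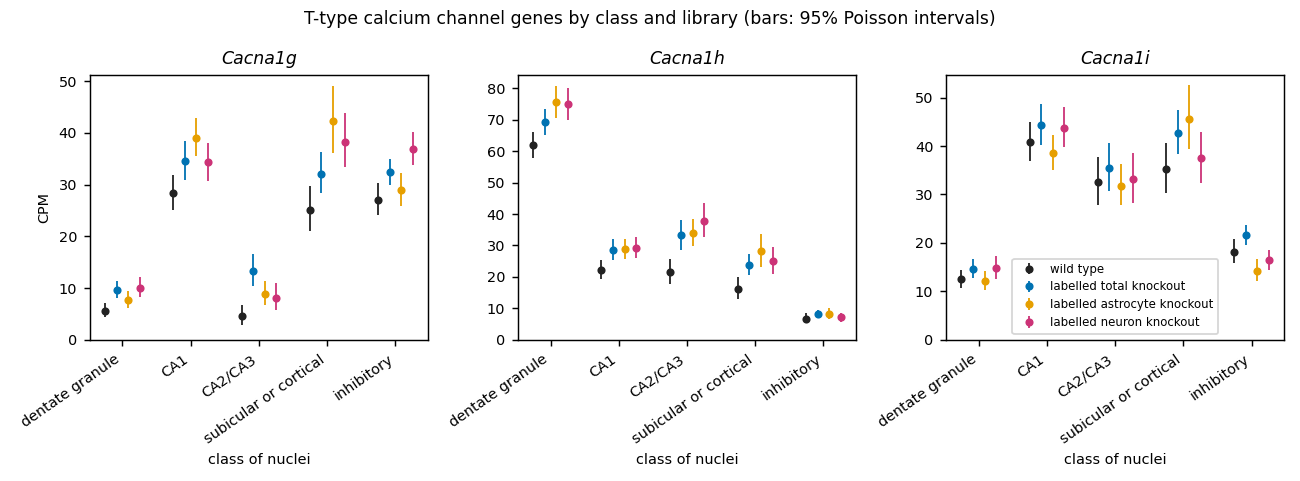
CPM of the 3 T-type pore genes (panels) in 5 classes of nuclei, 1 point per library with its 95% Poisson interval, which covers counting error only. Cacna1h is highest in dentate granule nuclei (61.9 to 75.5 CPM), where Cacna1g is low (5.65 to 10.1 CPM), and the wild-type point of Cacna1g and Cacna1h is the lowest of the 4 in each excitatory class.

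The alpha2delta subunits, extracellular proteins that carry calcium channels to the terminal and bind gabapentin in the case of Cacna2d1 and Cacna2d2, parted the inhibitory subtypes. Cacna2d1 (chr5:15934691-16374511) had 2813, 2858, 3253 and 2554 CPM in Lamp5 nuclei and 22.4, 41.6, 50.2 and 23.3 CPM in Sst nuclei. The ratio within a library was 64.7 to 125. Lamp5 nuclei also exceeded every other class, the next being dentate granule nuclei with 1115 to 1197 CPM. Cacna2d3 (chr14:28904943-29721864) was the counterpart, with 1975, 1862, 2023 and 2012 CPM in Sst nuclei and 84.5, 176, 109 and 103 in Lamp5 nuclei. Vip nuclei (1168 ± 111 CPM) and Cck nuclei (1241 ± 74.1 CPM) were high as well, and Pvalb nuclei were low with 130, 235, 237 and 191 CPM. Cacna2d2 marked Pvalb nuclei with 230, 248, 267 and 272 CPM and Sst nuclei with 128, 131, 119 and 148, and dentate granule nuclei had at most 2.72 CPM. Thus Lamp5, Sst and Pvalb nuclei each had a different leading alpha2delta gene relative to the other subtypes, in all 4 libraries. Pvalb nuclei were lower than the mean of Sst, Vip and Lamp5 nuclei in Cacna2d1 by -1.65 (SE 0.16, adjusted p = 1.30e-05) and in Cacna2d3 by -1.78 (SE 0.15, adjusted p = 5.17e-06). They were not the lowest class in either: Sst nuclei had the lowest mean of Cacna2d1 (34.4 CPM) and Lamp5 nuclei that of Cacna2d3 (118 CPM). Pvalb nuclei were higher in Cacna2d2 by 2.54 (SE 0.070, adjusted p = 1.32e-34), and inhibitory neurons exceeded excitatory ones in it by 6.23 (SE 0.19, adjusted p = 2.68e-10). Contrasts of Lamp5 or Sst nuclei alone were not tested. Cacna2d4 was under 5 CPM in the mean of all neuron classes.

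**Figure D4:**
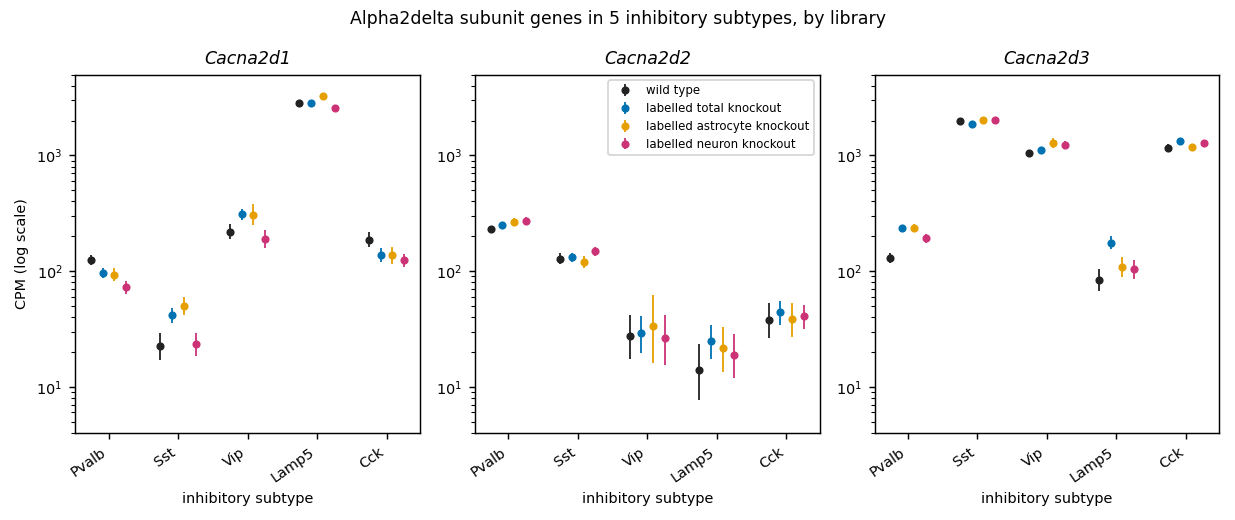
CPM on a log axis of 3 alpha2delta genes (panels) in 5 inhibitory subtypes, 1 point per library with its 95% Poisson interval. The 4 Lamp5 points of Cacna2d1 (2554 to 3253 CPM) and the 4 Sst points of Cacna2d3 (1862 to 2023 CPM) lie above all other subtypes of their panel.

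The calcium beta subunits bind the pore inside the cell and bring it to the membrane. Cacnb2 had its highest level in CA1 nuclei, with 2349, 2341, 2688 and 2388 CPM, followed by CA2/CA3 nuclei with a mean of 1656 (1570 to 1821), a log2 difference of -0.56 that is under 1.5-fold. The CA1 values stood against 368, 347, 365 and 350 in subicular or cortical nuclei, a ratio of 6.38 to 7.37. It was lower in inhibitory than in excitatory neurons by -1.90 (SE 0.040, adjusted p = 2.81e-24). Cacnb4 had the opposite direction, 0.60 higher in inhibitory neurons (SE 0.076, adjusted p = 3.31e-05). Its highest means were 875 ± 14.2 CPM in subicular or cortical nuclei, which are not part of the excitatory mean in that contrast, and 805 ± 44.5 in Pvalb nuclei. The inhibitory subtypes were not alike, since Vip nuclei had the lowest mean of the 13 classes, 302 CPM (243 to 346). Cacnb1 and Cacnb3 were both lower in inhibitory neurons, by -0.82 and -0.95, at means of 16.3 and 8.50 CPM there.

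Of the gamma subunits that act on AMPA receptors, Cacng8 was lower and Cacng2, Cacng4 and Cacng5 were higher in inhibitory than in excitatory neurons. Cacng8 had 191, 182, 206 and 202 CPM in CA1 nuclei and 76.4, 83.3, 94.7 and 89.1 in inhibitory nuclei, a difference from excitatory neurons of -1.20 (SE 0.036, adjusted p = 5.41e-21). Cacng2, which encodes stargazin, was 1.28 higher in inhibitory neurons (SE 0.045, adjusted p = 6.81e-18) and highest in Pvalb nuclei with 167, 182, 194 and 212 CPM. Cacng3 was not called between inhibitory and excitatory neurons (log2 difference -0.19), and its levels varied within both: 164 ± 7.79 CPM in Sst, 155 ± 11.2 in subicular or cortical, 43.3 ± 6.21 in CA2/CA3 and 24.2 ± 8.79 in Lamp5 nuclei. Cacng4 had 31.4, 44.0, 34.8 and 38.3 CPM in inhibitory nuclei. Its means were 0.395 CPM in dentate granule, 0.659 in CA1 and 0.477 in CA2/CA3 nuclei, from 1 to 10 UMIs in a library, and the fitted difference was 6.02 (SE 0.12, adjusted p = 5.97e-25). Cacng7 differed by under 1.5-fold in every neuronal contrast. Cacng1 and Cacng6, the gamma subunits of skeletal muscle channels, had means of at most 0.909 and 4.02 CPM in the 13 classes compared.

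In glia most members tested were lower than in excitatory neurons, and Cacng4 was higher in all 3 glial classes. Excitatory neurons are for the glial contrasts 1 sum per library over dentate granule, CA1, CA2/CA3 and subicular or cortical nuclei. In oligodendrocyte precursors Cacng4 had 609, 691, 355 and 183 CPM, 8.79 above excitatory neurons (SE 0.42, adjusted p = 1.24e-10). The summed level of the precursor markers moved with it, at 11296, 11339, 7026 and 5655 CPM, and that of the oligodendrocyte markers in the same nuclei the other way, at 1246, 1522, 4084 and 8037 CPM. The part of these other nuclei or RNA in the Cacng4 values was not tested. Of 28 members tested, 3 were higher (Cacng4, Cacna2d2 and Cacng7) and 20 lower in precursors, against 39.6% of all 10996 genes called (18.5% higher and 21.2% lower). There were 1 higher and 25 lower in oligodendrocytes, against 50.6% (21.6% and 29.0%), and 1 higher and 19 lower in astrocytes, against 24.1% (11.9% and 12.2%). Without the wild-type library fewer genes passed the filter on low counts, 5368 in all and 19 members. Of these 19, 7 were called in precursors (26.1% of all genes), 14 in oligodendrocytes (47.0%) and 2 in astrocytes (14.6%), so the astrocyte share was then no larger than that of all genes. Without the library labelled neuron knockout 12 of 28 were called in astrocytes, against 16.2% of all genes. Oligodendrocyte nuclei numbered 317, 1213, 41 and 50, precursors 223, 477, 21 and 19, and astrocytes 62, 72, 25 and 37, and the 19 precursors of the library labelled neuron knockout were left out of the fit. With DESeq2 size factors the share of higher genes among all called in astrocytes went from 49.4% to 63.9%, and the median over all genes moved from -0.17 to 0.01. Neuronal channel genes were also counted in microglia, with 664, 560, 598 and 1557 CPM of Cacna1e from 100, 85, 13 and 56 UMIs, against 979, 1011, 1058 and 957 CPM in excitatory nuclei. The part of free RNA in the glial levels was not tested. Cacna2d4 had 29.9 and 38.2 CPM in oligodendrocytes of wild type and of the library labelled total knockout, against 1.72 and 1.77 in excitatory nuclei. The libraries labelled astrocyte and neuron knockout, with far fewer oligodendrocytes, held 1 and 0 of its UMIs there, and the gene was too low for the test.

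The genes that position or regulate these channels were followed in a list of 31 partners. In inhibitory against excitatory neurons 7 were higher and 9 lower of 29 tested, against the 36.7% of all genes called. The fibroblast growth factor homologous factors Fgf13, Fgf11 and Fgf12, which bind the sodium channel tail, were higher by 2.97, 2.23 and 1.51, while the fourth of them, Fgf14, was at -0.38 and under 1.5-fold. Also higher were Stac2, an adaptor of L-type channels, by 2.50, and Gem, a small GTP-binding protein that acts on calcium channel beta subunits, by 3.52. Ank3, the ankyrin that anchors sodium channels at the initial segment, was lower by -0.74 and the release-site protein Erc2 by -1.12. In CA1 against dentate granule neurons 7 partners were higher and 8 lower of 29 (31.1% of all genes), with Stac at 4.99 and Rims1, which tethers calcium channels at release sites, at -0.67, while its paralogue Rims2 was higher by 0.61. In CA2/CA3 against CA1 neurons 7 were higher and 3 lower of 29 (19.9%), with Rims1 at 1.14 and Stac at -4.73. Against dentate granule neurons 6 were higher and 1 lower of 29, a smaller share than the 32.6% of all genes, with Stac2 at 5.10 and the AMPA receptor auxiliary Cnih3 at -2.98. Pvalb neurons had 3 higher, with Stac2 at 1.76 and Fgf12 at 1.30, and 4 lower of 27 (19.1% of all genes). In oligodendrocytes 1 of 27 was higher, Nfasc at 2.81 (a cell adhesion protein of the node), and 21 were lower (50.6% of all genes). In precursors 1 was higher, again Nfasc, and 16 were lower of 27 (39.6%), and in astrocytes 0 were higher and 10 lower of 27 (24.1%).

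Between the knockout libraries and wild type few members passed 1.5-fold, and few of all genes did. The shares of all genes given below are not matched to the members for abundance. These values compare single libraries, carry 95% intervals for counting error only, and share the wild-type library. A member counted as past the fold where it held at least 100 UMIs over the 4 libraries of a class and differed by at least 1.5-fold. In CA1 nuclei none of 27 members passed in any library, against 8.14%, 5.29% and 6.53% of all genes in the libraries labelled total, astrocyte and neuron knockout. In dentate granule nuclei 1, 0 and 1 of 29 passed (background 7.52%, 7.34% and 6.54%), in CA2/CA3 nuclei 3, 2 and 2 of 28 (8.42%, 5.29% and 7.56%), and in inhibitory nuclei 3, 2 and 2 of 31 (8.99%, 8.02% and 8.43%). The median log2 ratio of the members lay between 0.00 and 0.12 over these 12 comparisons, and that of all genes between -0.06 and 0.00. All 4 libraries lay within 1.5-fold of each other for 27 of 29 members in dentate granule nuclei, 26 of 27 in CA1, 25 of 28 in CA2/CA3 and 26 of 31 in inhibitory nuclei, against 79.8% to 82.1% of all genes. The main pores Scn1a, Scn2a, Scn3a, Scn8a, Cacna1a, Cacna1b, Cacna1c and Cacna1d were among those within 1.5-fold in all 4 classes.

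**Figure D5:**
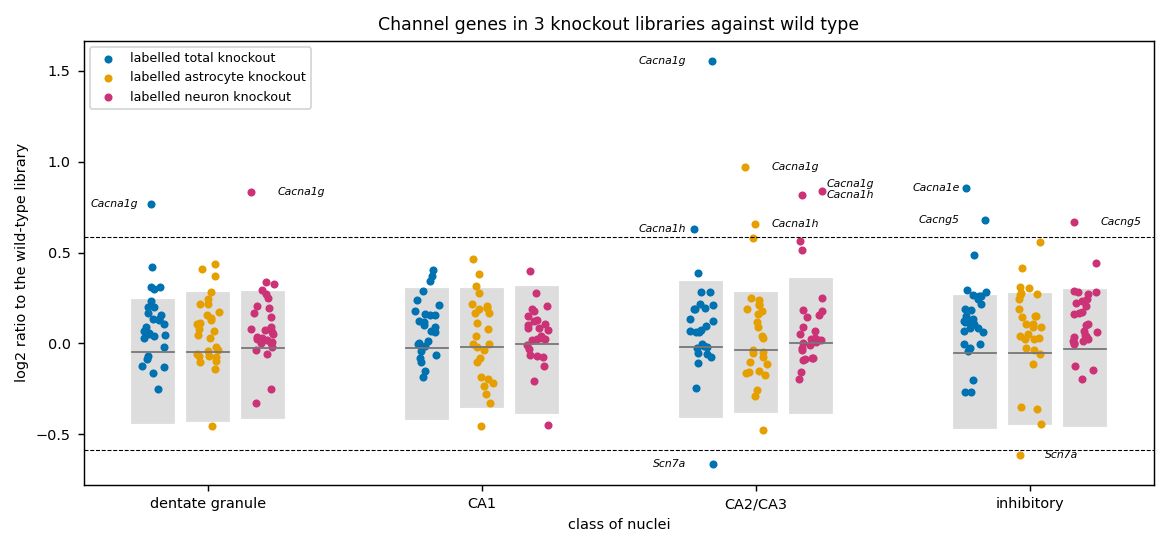
Log2 ratio to the wild-type library of those of 34 members with at least 100 UMIs (points, coloured by library) in 4 classes. Grey boxes span the 10th to 90th percentile of all genes, grey lines are their medians and dashed lines mark 1.5-fold. No member passes the lines in CA1, and Cacna1g in CA2/CA3 nuclei of the library labelled total knockout is the highest point at 1.55.

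The T-type genes Cacna1g and Cacna1h accounted for 8 of the 9 values past the fold in principal neurons, and the remaining one was Scn7a. In CA2/CA3 nuclei Cacna1g had 4.52 CPM in wild type, from 24 UMIs, and 13.3, 8.86 and 8.09 CPM in the others. The log2 ratios were 1.55 (95% interval 0.88 to 2.28), 0.97 (0.27 to 1.71) and 0.84 (0.08 to 1.63). When Leiden clusters took the place of the gates they were 0.83, 0.89 and 0.58, the last just under the fold. In dentate granule nuclei Cacna1g had 5.65 CPM in wild type and 9.60, 7.64 and 10.1 in the others, with ratios of 0.77 (0.36 to 1.18), 0.44 (-0.02 to 0.89) and 0.83 (0.40 to 1.27). In CA1 nuclei, where the gene is more abundant, the values were 28.3, 34.6, 39.1 and 34.3 CPM and no ratio passed the fold. With male nuclei alone it passed there in the library labelled astrocyte knockout, and with nuclei thinned to 1000 UMIs in those labelled total and neuron knockout. Cacna1h had 21.5, 33.2, 33.9 and 37.9 CPM in CA2/CA3 nuclei, with ratios of 0.63 (0.29 to 0.98), 0.66 (0.33 to 0.99) and 0.82 (0.48 to 1.17). In male nuclei alone these were 1.28, 1.49 and 1.21, and with Leiden clusters 0.69, 0.67 and 0.56, the last under the fold. In dentate granule nuclei Cacna1h had 61.9, 69.1, 75.5 and 74.9 CPM, all within 1.5-fold. In dentate granule, CA1, CA2/CA3 and subicular or cortical nuclei the wild-type library was the lowest of the 4 for both genes. The summed level of the 8 inhibitory markers was also lowest in wild type, with 18.5, 57.2, 27.9 and 53.5 CPM in CA2/CA3, 2.23, 7.77, 6.37 and 5.64 in CA1 and 80.2, 92.1, 91.0 and 88.3 in dentate granule nuclei, and Cacna1g, unlike Cacna1h, was higher in inhibitory than in excitatory neurons. The dentate granule markers, from the class highest in Cacna1h, summed to 110, 162, 110 and 152 CPM in CA2/CA3 nuclei. The part of these markers' nuclei or RNA in the T-type values was not tested. Cacna1i did not show this order: in CA1 its lowest value was 38.5 CPM in the library labelled astrocyte knockout. Whether a second wild-type library would also lie low was not tested. Scn7a in CA2/CA3 nuclei had a ratio of -0.67 in the library labelled total knockout, with an interval that holds 0, and 0.37 with Leiden clusters.

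In inhibitory nuclei the members past the fold and described here were Cacng5, Cacna1e and Scn7a. Cacng5 had 10.5, 16.8, 14.0 and 16.6 CPM, with log2 ratios to wild type of 0.68 (0.37 to 1.00), 0.42 (0.07 to 0.77) and 0.67 (0.34 to 0.99). Cacna1e had 129, 233, 190 and 153 CPM, and its log2 ratios were 0.86 (0.77 to 0.94), 0.56 (0.46 to 0.66) and 0.25 (0.15 to 0.34). The makeup of the class also differed between libraries. Inhibitory nuclei assigned to none of the 5 subtypes numbered 315 of 1127, 1460 of 3314, 571 of 1458 and 546 of 1532. They held more of Cacng5 and Cacna1e than the class as a whole, but their share did not follow the order of the Cacng5 values. Over nuclei of the 5 subtypes alone no member passed the fold, with Cacng5 at 0.38, -0.26 and -0.58, and Cacna1e at 0.50, -0.32 and -0.39. Scn7a was lower in the library labelled astrocyte knockout, at -0.62 (-1.20 to -0.04) in the whole class and -0.45 over the 5 subtypes. Vip nuclei, the subtype with the most Scn7a, made up 113 of 1127, 211 of 3314, 54 of 1458 and 85 of 1532 inhibitory nuclei, and the Vip markers in the class summed to 419, 314, 178 and 242 CPM. Within Vip nuclei the library labelled astrocyte knockout was the highest of the 4, at 30.1 CPM from 9 UMIs. The part of class makeup in the ratios of Cacng5, Cacna1e and Scn7a was not tested.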

How the data were processed

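UMI counts of each gene in each barcode were deposited by the authors as whole numbers, unnormalized, for 4 libraries. Per the submitters' processing notes, Cell Ranger ARC 2.0.0 and mm10 were used; the gene models and the handling of strand are not stated in the labels. Reads are those of a 10x multiome kit, per the labels' protocols, and only RNA was analysed here. Libraries were joined on 20211 shared symbols. Nuclei were kept from 500 detected genes upward if mitochondrial UMIs made up 5% or less, and Scrublet doublets were removed (scanpy 1.11.5). A nucleus took the class whose marker list scored at least 0.5 (mean standardized log value), 0.25 above the next list, with 3 markers detected. Non-neuronal classes also needed negative excitatory and inhibitory scores. Inhibitory nuclei needed an inhibitory score of at least 0.5, above the excitatory score, with 3 inhibitory markers detected. Those that met the first rule for no subtype stayed in the inhibitory class without the 0.25 margin. Marker scores lay within 0.05 of a threshold for up to 11.6% of the nuclei of a class. UMIs were summed per library and class. Class contrasts used edgeR 4.0.16 (TMM, quasi-likelihood test, library as a block, sums of at least 20 nuclei, Benjamini-Hochberg over all genes); standard errors follow from the F statistic. The script was tested on simulated data. Knockout libraries were compared with wild type by CPM with exact Poisson and conditional binomial intervals at 95%, with no test. Positions come from GENCODE M21 and RefSeq (GRCm38); 26 members had a RefSeq upstream window. For 16 members another gene counted in the files overlaps on the opposite strand, so their reads may not be told apart. Named members followed a rule: all called or past the fold, the largest in full, and the main subunits of each role. Counts cover all members; values of 2 of them are not reported here. Members, gene lists and tests were chosen with earlier results of these data known. Alternatives were other scalings and tests, filters, doublets kept, male nuclei, Leiden clusters, and leaving out each library; the restriction to 5 inhibitory subtypes was added after seeing the data.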

Additional observations from a re-analysis of the deposited data

Results flagged for a closer look

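Channel symbols that were not listed in every library, and so were left out of the comparisons, still held counts. Scn10a, a sodium pore of sensory neurons, had 20 UMIs over all barcodes of the library labelled total knockout and 5 in that labelled astrocyte knockout. Scn11a, another sensory sodium pore, had 26 UMIs in the library labelled total knockout. Neither gene was listed in wild type, so there is no wild-type level to set these counts against, and the libraries differ in depth, with 193307038 UMIs over all barcodes in the library labelled total knockout and 89884297 in wild type. With 1 library per genotype no group had the 4 samples needed to look for an outlying sample.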

How the results depend on the processing

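The counts of called members in the 5 neuronal contrasts stayed within 1.5 times their main values under every alternative run, leaving out each library included. Over the 158 calls of members in the 8 contrasts and 11 alternatives, 1559 values kept their direction and call. Another 131 kept the direction and lost the call, and 1 reversed: Cacng7 in astrocytes was 0.14 with Leiden clusters. Not every call had a value in every alternative. Of the 158, 137 had one without the wild-type library, 139 without that labelled total knockout and 153 in male nuclei. In astrocytes 20 of 28 members were called (24.1% of all genes), 13 with the DESeq2 Wald test (22.4%) and 12 with Leiden clusters (25.4%). With 1 library left out, 19 to 29 members were tested in glia. Then 2 to 18 were called in astrocytes (14.6% to 33.9% of all genes), 14 to 27 in oligodendrocytes (47.0% to 50.8%) and 7 to 24 in precursors (26.1% to 39.6%). The class contrasts pair classes within a library through the block, and without it 26 members were called in oligodendrocytes (53.3% of all genes), 25 in precursors (43.4%) and 22 in astrocytes (26.2%). Between genotypes, no paired analysis was possible because each has 1 library.

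The values past the fold in the libraries labelled total, astrocyte and neuron knockout numbered 7, 4 and 5. They numbered 2, 0 and 1 at a fold of 2, which 0.701% to 2.14% of all genes passed. At a minimum of 20 UMIs they numbered 17, 11 and 13, while the share of all genes rose to between 13.3% and 17.9% from between 5.29% and 8.99%. They numbered 4, 2 and 3 with only inhibitory nuclei of the 5 subtypes, in which 7.05% to 7.61% of all genes passed. With Leiden clusters they numbered 7 in the library labelled astrocyte knockout, against 5.15% to 8.76% of all genes over its 4 classes. Among the members described, reversed values were Scn7a in CA2/CA3 nuclei at 0.37 with Leiden clusters (total) and Cacng5 at -0.58 in inhibitory nuclei of the 5 subtypes (neuron). The causes were not tested. With nuclei thinned to 1000 UMIs the counts were 7, 5 and 5, against 6.81% to 12.04% of the 3297 to 8262 genes still tested in a class, but mostly of other members: Cacna1e (total) and Cacng5 (neuron) in inhibitory nuclei still passed, Cacnb1 passed in dentate granule nuclei of all 3 libraries, and Cacna1g in those nuclei and Cacna1g, Cacna1h and Scn7a in CA2/CA3 nuclei fell under 100 UMIs and have no value. The 1 library per genotype limits every comparison with wild type.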
